A study of Mus musculus with 67 samples.

Results

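The genes described here are 34 genes of antigen presentation by the major histocompatibility complex (MHC), 15 of class II presentation and 19 of class I presentation, out of 35612 genes in the deposited tables. They were chosen by name for their place in the pathway, with earlier results of these data known. The class II side holds the alpha and beta chains H2-Aa, H2-Ab1 and H2-Eb1, the peptide editors H2-DMa, H2-DMb1, H2-DMb2, H2-Oa and H2-Ob, the invariant chain Cd74, the lysosomal enzymes Ctss and Ifi30, and the regulators Ciita, Rfx5, Rfxap and Rfxank. The class I side holds the heavy chains H2-K1 and H2-D1, their light chain B2m, the nonclassical heavy chains H2-Q4, H2-Q6, H2-Q7, H2-T22, H2-T23 and H2-M3, the peptide loading genes Tap1, Tap2, Tapbp and Erap1, the immunoproteasome and proteasome activator genes Psmb8, Psmb9, Psmb10, Psme1 and Psme2, and the regulator Nlrc5. Counts were found for 33 of the 34 genes, and Ifi30, a lysosomal thiol reductase, had no transcript in the tables and was not analysed here. On GRCm38, 21 of the members lie within 3.36 Mb of chromosome 17 (chr17:33915899-37274484), and 13 lie elsewhere.

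RNA was sequenced from purified lymphocytes of C57BL/6 mice to ask what antibody against Btla, an inhibitory receptor of B and T cells that binds Hvem, does to receptor-activated cells. B cells or CD4+ T cells were enriched by negative selection from spleen and from inguinal and brachial lymph nodes of mice that were either not immunized (naive) or immunized for experimental autoimmune encephalomyelitis (EAE), a model of multiple sclerosis. All mice were of the same wild-type strain, so no allele differed between groups. The unstimulated arm received no antibody and no cytokine, and the sources used here do not say whether it was cultured. The other 4 arms were stimulated for 18 h, B cells with anti-IgM/G and T cells with anti-CD3, through beads that also carried a control immunoglobulin (CtrlIg) or anti-Btla, each without or with soluble interferon beta (IFNb). This gave 20 groups of 3 libraries, and the libraries of a group carry the numbers 1 to 3 in the labels.

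MHC class II molecules display peptides from endosomes to CD4+ T cells. Their chains assemble on the invariant chain, cathepsin S (Ctss) trims that chain, and H2-DM exchanges its remnant for peptide while H2-DO restrains H2-DM. Ciita is the coactivator that docks on the RFX and NF-Y proteins at class II promoters, and B cells transcribe it constitutively. C57BL/6 mice have no working H2-Ea gene, so their H2-Eb1 transcript does not lead to a surface I-E molecule. MHC class I molecules display peptides cut by the proteasome in the cytosol. The immunoproteasome subunits replace constitutive ones, the activator made by Psme1 and Psme2 opens the proteasome, Tap1 and Tap2 carry peptides into the endoplasmic reticulum, Erap1 trims them, and tapasin (Tapbp) loads them. Nlrc5 is the class I counterpart of Ciita, and interferons raise many class I genes.

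Promoter sequences are shown for 4 class II genes and 2 class I genes, because they hold the letters through which these regulators are known to act. RefSeq (GRCm38.p6) gave a window of 250 bases before to 50 after the start for 28 of the 34 members, and none for H2-Ab1, Cd74, Ciita, Tap2, Nlrc5 and Rfxap. Capitals mark a match to 1 of 4 motifs searched on both strands: the RFX half-site GTTGC, which reads GCAAC on the other strand, the NF-Y box CCAAT, which reads ATTGG there, the interferon-stimulated response element (ISRE) GAAANNGAAA, and the gamma-activated site (GAS) TTCNNNGAA. Sequences run 5′ to 3′ on the gene's strand and end before the RefSeq start. The last H2-Oa base shown is also the base where its gene begins in the GENCODE annotation.
H2-Aa (chr17:34287824-34287943, minus strand): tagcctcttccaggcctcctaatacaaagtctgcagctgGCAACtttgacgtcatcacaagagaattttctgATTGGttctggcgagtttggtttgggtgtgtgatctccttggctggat
H2-Eb1 (chr17:34305747-34305866, plus strand): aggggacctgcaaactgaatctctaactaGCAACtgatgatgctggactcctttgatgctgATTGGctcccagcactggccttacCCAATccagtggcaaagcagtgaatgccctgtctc
H2-Oa (chr17:34092259-34092340, plus strand): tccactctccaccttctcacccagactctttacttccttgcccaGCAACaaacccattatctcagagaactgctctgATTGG
H2-Ob (chr17:34238785-34238902, plus strand): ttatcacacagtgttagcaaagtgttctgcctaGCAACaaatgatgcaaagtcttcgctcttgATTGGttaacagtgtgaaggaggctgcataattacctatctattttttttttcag
B2m (chr2:122147527-122147685, plus strand): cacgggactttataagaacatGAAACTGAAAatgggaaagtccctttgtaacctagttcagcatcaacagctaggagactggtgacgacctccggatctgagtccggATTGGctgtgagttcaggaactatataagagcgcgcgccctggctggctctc
H2-T22 (chr17:36042792-36042952, minus strand): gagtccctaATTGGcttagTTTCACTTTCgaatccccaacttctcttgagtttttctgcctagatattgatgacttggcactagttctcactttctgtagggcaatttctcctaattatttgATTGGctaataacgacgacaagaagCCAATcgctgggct

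In the 4 class II windows shown, which were chosen for these letters, a GCAAC was followed by an ATTGG. From the start of GCAAC to the start of ATTGG there were 30 to 33 bases. This spacing, noticed in these sequences, occurred in 57 of 32851 windows of the genome (0.17%), of which 4 were the member windows shown. The windows of H2-DMa, H2-DMb1 and H2-DMb2, the other class II genes with a window, did not hold it. Of the 9 class II chain, editor and invariant chain genes, 7 had a window. In the 250 bases before the start all 7 held a CCAAT box, which 33.8% of all windows held there, and 5 held the RFX half-site, which 29.9% held. None of the 7 held an ISRE (3.0% of all windows) or a GAS (7.0%) in that part. On the class I side, 17 of 19 genes had a window, and in the same 250 bases B2m, H2-T22 and H2-T23 held an ISRE, 12 held a CCAAT box, 5 an RFX half-site and 0 a GAS. Erap1 had an ISRE across its start and Psme1 had one just after it. The matches describe these letters in these windows only.

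**Figure D1:**
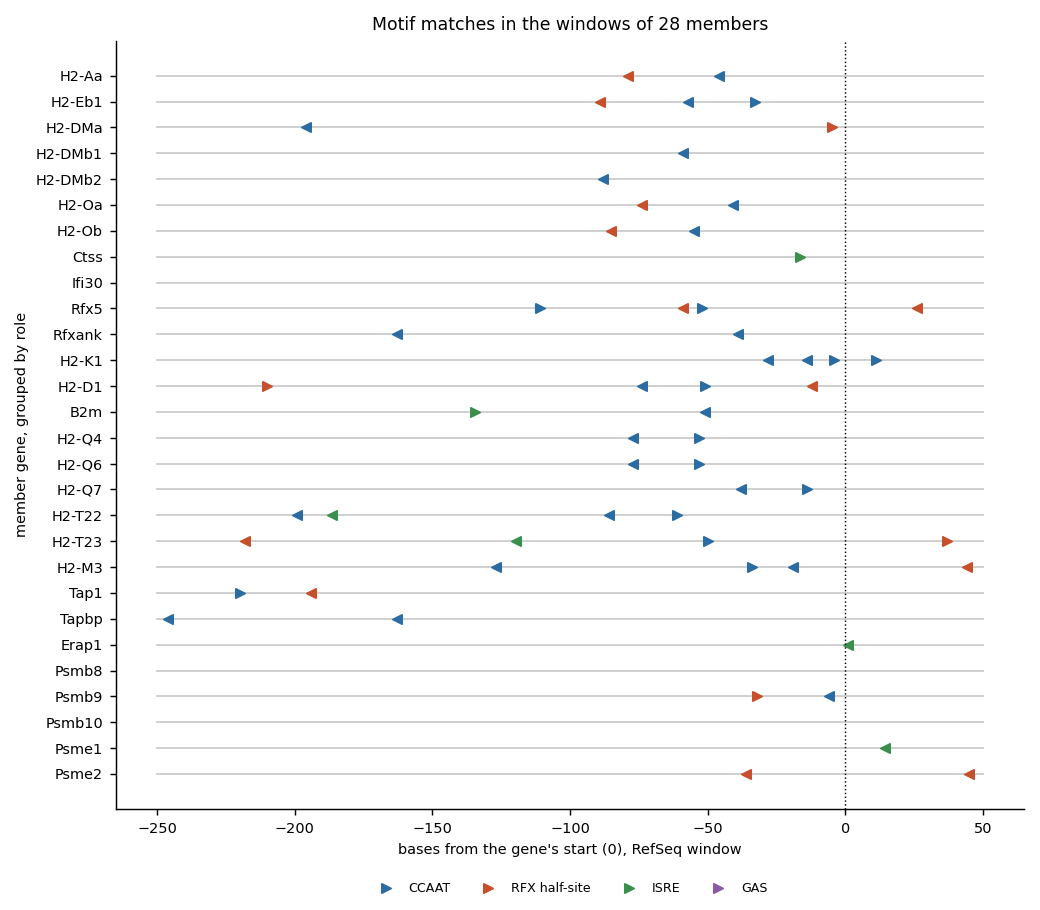
Motif matches in the 300-base promoter windows of the 28 members that had one, with distance from the transcription start in bases on the horizontal axis and 1 row per listed start; triangles point right for a match on the gene's strand and left for the other strand. The RFX half-site and CCAAT marks of H2-Aa, H2-Eb1, H2-Oa and H2-Ob stand at a similar distance from each other, the ISRE marks stand on class I side genes and Ctss, and no GAS mark appears.

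Library depth was 6.7 to 62.1 M counts in B cells (median 33.05 M) and 7.3 to 34.2 M in T cells (median 13.15 M). B cell marker genes summed to 4406 to 7637 CPM (counts scaled to a library total of 1 M) in B cell libraries and to 19.31 to 224.4 in T cell libraries. The naive T cell libraries, labelled CD4+, held CD8 transcripts at the level of Cd4: Cd8a was at 213.1 to 344 CPM, Cd8b1 at 287.4 to 752.3 and Cd4 at 308.2 to 588.8. In EAE T cells Cd8a was at 0.7999 to 6.156 CPM, Cd8b1 at 10.22 to 22.95 and Cd4 at 505.3 to 753.4. Differences between EAE and naive T cells and between their contents of CD8+ cells therefore cannot be told apart. In all these libraries a lower level in fewer cells of a type and less RNA per cell cannot be told apart either. Nothing in the labels says that the libraries of a group came from separate mice, so the p-values rest on library-to-library spread, which may be technical.

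Resting B cells held class II transcripts at the level of the most abundant class I ones, and T cells did not. Levels of different genes are compared on the length-scaled TPM scale. In unstimulated naive B cells B2m was at 2817 ± 83.31 TPM and Cd74 at 2255 ± 154.9 (SD, n = 3 for each value in this paragraph). H2-K1 followed at 790.1 ± 37.3, H2-Aa at 662.9 ± 78.52 and H2-Ab1 at 628.1 ± 55.4. H2-Aa and H2-Ab1 lay within their spread of each other. H2-D1 was at 355.7 ± 20.22 TPM and H2-Ob at 306.1 ± 18.04. In unstimulated naive T cells the order was B2m at 4424 ± 59.29 TPM, H2-K1 at 2225 ± 254.4, H2-D1 at 563.7 ± 34.08, Psme1 at 372.9 ± 60.99 and H2-Q7 at 344.5 ± 23.73, where the last pair lay within their spread. No class II chain was among the 12 highest members there, and Ctss, which many cells make, was the twelfth at 93.9 TPM.

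The 9 class II genes, summed on the CPM scale, gave 2268 to 6146 CPM in the 30 B cell libraries and 80.75 to 369.8 CPM in the 30 T cell libraries, with no overlap. In naive B cells the sum was 3925 ± 303 CPM unstimulated (SD, n = 3), 2439 ± 182.2 with CtrlIg and 3073 ± 284.2 with anti-Btla. In EAE B cells it was 5631 ± 495, 2762 ± 406.7 and 4242 ± 435.6 in the same order. Stimulated B cells lay below unstimulated ones in both states and anti-Btla lay between, with no overlap of the 3 arms in either state.

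**Figure D2:**
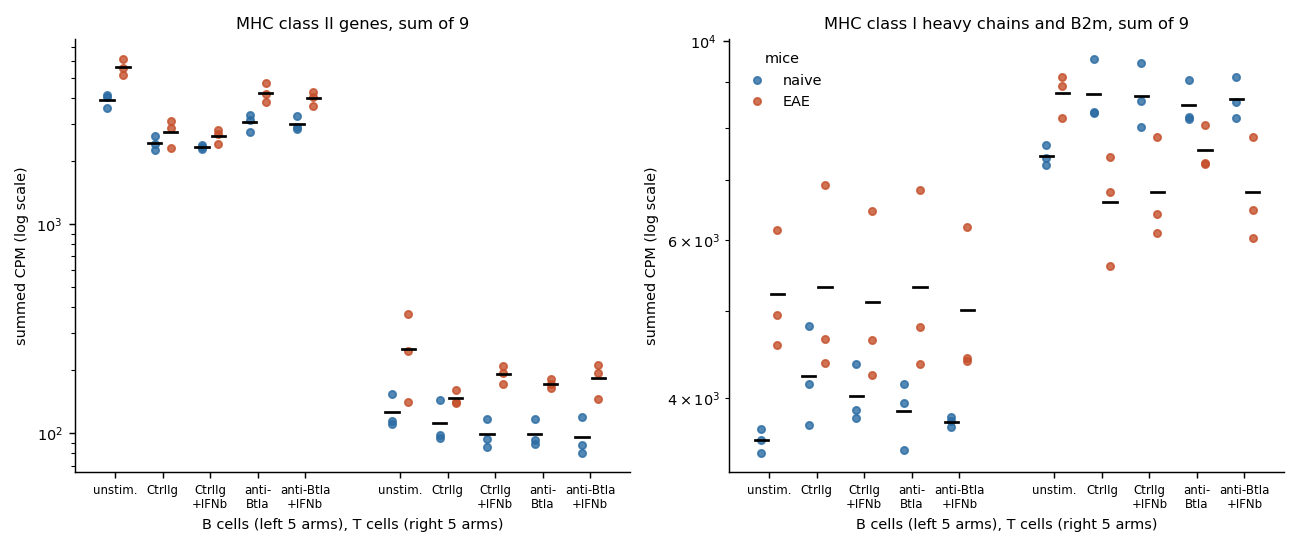
Summed level in CPM (log axis) of the 9 class II genes and of the 8 class I heavy chains with B2m in each of the 60 libraries, by cell type, immunization state and arm; points are libraries and black bars are means of 3. Class II sums run from 2268 to 6146 CPM in B cells and from 80.75 to 369.8 CPM in T cells, and fall from the unstimulated to the CtrlIg arm in both B cell sets.

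Naive B cells with CtrlIg had lower class II side and higher class I side levels than unstimulated ones, a comparison called activation here. The CtrlIg beads came with the receptor stimulus, and the sources do not say whether unstimulated cells were cultured. Receptor stimulation, beads and culture therefore cannot be told apart in any activation comparison, of B or of T cells. Of 14 class II side genes tested, 9 fell, 0 rose and 5 did not pass (adjusted p under 0.05, edgeR's quasi-likelihood test with the library number as a term). Of 19 class I side genes, 11 rose and 0 fell. Over all 16635 genes tested 22.7% rose and 17.5% fell, with a median log2 change of -0.02, against -0.53 for the class II side and 0.34 for the class I side.

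Ciita fell most of the members. It was at 148.3, 129.7 and 162.2 CPM in the unstimulated libraries and at 81.09, 59.99 and 73.85 with CtrlIg, a log2 change of -0.93 ± 0.06 (SE, adjusted p = 2.39e-08). H2-Ob, the beta chain of H2-DO, went from 483.5, 570 and 536.6 CPM to 261.4, 289.7 and 262.7 (log2 change -0.86 ± 0.05, adjusted p = 7.53e-09). For both genes all 3 stimulated libraries lay below all 3 unstimulated ones. Cd74 went from 1836, 2165 and 1951 CPM to 1435, 1284 and 1081 (-0.55 ± 0.10 on the log2 scale, adjusted p = 0.00034). H2-Aa went from 585.5, 637.8 and 762.4 CPM to 438.6, 397.4 and 453.5 (log2 change -0.51 ± 0.08, adjusted p = 6.39e-05). These groups did not overlap either. H2-Ab1 (log2 change -0.65 ± 0.09), H2-Eb1 (-0.57 ± 0.10), H2-DMb1 (-0.66) and H2-DMb2 (-0.64) fell by similar amounts. H2-DMa (-0.03) and H2-Oa (-0.13) did not pass. H2-DMa is the partner of H2-DMb1 or H2-DMb2 in H2-DM, and H2-Oa that of H2-Ob in H2-DO.

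On the class I side the proteasome activator genes had the highest changes. Psme2 was at 83.57, 95.26 and 82.8 CPM unstimulated and at 190.6, 189.6 and 155.3 with CtrlIg, a log2 change of 1.14 ± 0.09 (adjusted p = 9.93e-08). Psme1 went from 69.56, 74.07 and 63.13 CPM to 137.1, 136.3 and 115.6 (log2 change 1.02 ± 0.07, adjusted p = 2.3e-08). For both genes every stimulated library lay above every unstimulated one. Nlrc5 rose from 98.96, 51.25 and 60.01 CPM to 124.6, 92.96 and 106.1 (log2 change 0.77 ± 0.09, adjusted p = 4.8e-06). Its groups overlapped on the raw scale, because library 1 was the highest of both arms, and each library rose against the one of the same number. B2m rose by 0.56 ± 0.09 on the log2 scale (adjusted p = 0.000104), from 1706, 1626 and 1722 CPM to 2654, 1968 and 2280. H2-K1 rose by only 0.26 ± 0.07 (adjusted p = 0.0105), and Psmb9 by 0.46 ± 0.09 (adjusted p = 0.00061). Tap1, the transporter subunit, had a log2 change of -0.02 (adjusted p = 0.824) and H2-D1 of 0.18 (adjusted p = 0.108). The call of H2-K1 was lost when any of 5 single libraries or number sets was left out, and with library totals in place of TMM scaling (log2 change 0.15).

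EAE B cells showed the same opposite movement of class II and of the proteasome activator. All 9 class II chain, editor and invariant chain genes fell, 11 of 14 class II side genes fell and 0 rose, and on the class I side 7 rose and 4 fell of 19. Over 17007 genes 21% rose and 18.8% fell, with a median of -0.05 against -0.82 for the class II side and 0.14 for the class I side. Cd74 went from 3434, 2794 and 2495 CPM to 1461, 1092 and 1516, a log2 change of -0.97 ± 0.09 (adjusted p = 2.12e-06). Ciita went from 165.5, 209.9 and 193.1 CPM to 73.13, 65.12 and 91.83 (-1.18 ± 0.09, adjusted p = 2.53e-07). In both cases the lowest unstimulated library was well above the highest stimulated one. H2-Ob had a log2 change of -1.08 ± 0.08 (adjusted p = 2.84e-07), H2-Eb1 of -0.91 ± 0.08 (adjusted p = 1.68e-06), H2-Ab1 of -0.84 ± 0.10 (adjusted p = 1.5e-05) and H2-Aa of -0.73 ± 0.07 (adjusted p = 2.05e-06). Psme2 rose by 1.02 ± 0.08, Psme1 by 0.95 ± 0.09, Nlrc5 by 0.78 ± 0.14, Erap1 by 0.54 ± 0.09 and B2m by 0.48 ± 0.08 (adjusted p = 2.3e-07, 2.27e-06, 0.000536, 0.00033 and 0.000187). H2-K1 (-0.05, adjusted p = 0.638), H2-D1 (-0.06), Tap1 (-0.22, adjusted p = 0.176) and Psmb9 (0.38, adjusted p = 0.105) did not pass. The class I genes that fell were the nonclassical H2-M3 (-0.47 ± 0.07), H2-Q4 (-0.38 ± 0.07), H2-Q6 (-0.38 ± 0.07) and H2-Q7 (-0.37 ± 0.10), and H2-M3 presents N-formylated peptides. The call of H2-Q7 was lost without number 2 or CtrlIg library 2 (adjusted p up to 0.08661). Without the number term 10 members were called in place of 22, 1 higher and 9 lower. The Q genes share 38.4 to 49.8% of their 31-base words with other genes, so the split of reads among them is uncertain. The same limit holds in every comparison for H2-T22 (51.0%), H2-DMb2 (36.3%), Psme2 (33.5%, shared with Psme2b) and H2-DMb1 (31.4%). It also holds for H2-D1 (26.7%), H2-T23 (24.4%) and H2-K1 (22.8%).

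The direct test of EAE against naive activation in B cells called 0 of 33 members, and 15 of 17341 genes in all (0.0865%). At an unadjusted p under 0.05 it held 9 members and 844 genes, and DESeq2 called 0 members. The fitted difference was negative for 28 of 33 members, with a median of -0.20 on the log2 scale and a range of -0.64 to 0.06. The smallest adjusted p was 0.669, for H2-Q6.

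The B cell marker genes, which are not class II genes, moved with class II. Their sum averaged 7384 CPM in unstimulated naive B cells, 5033 with CtrlIg and 6178 with anti-Btla, and 7327, 4640 and 6185 CPM in EAE B cells. Their part in the class II changes was not tested. Myeloid and dendritic cell markers summed to 50.29 to 89.6 CPM over all B cell libraries.

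**Figure D3:**
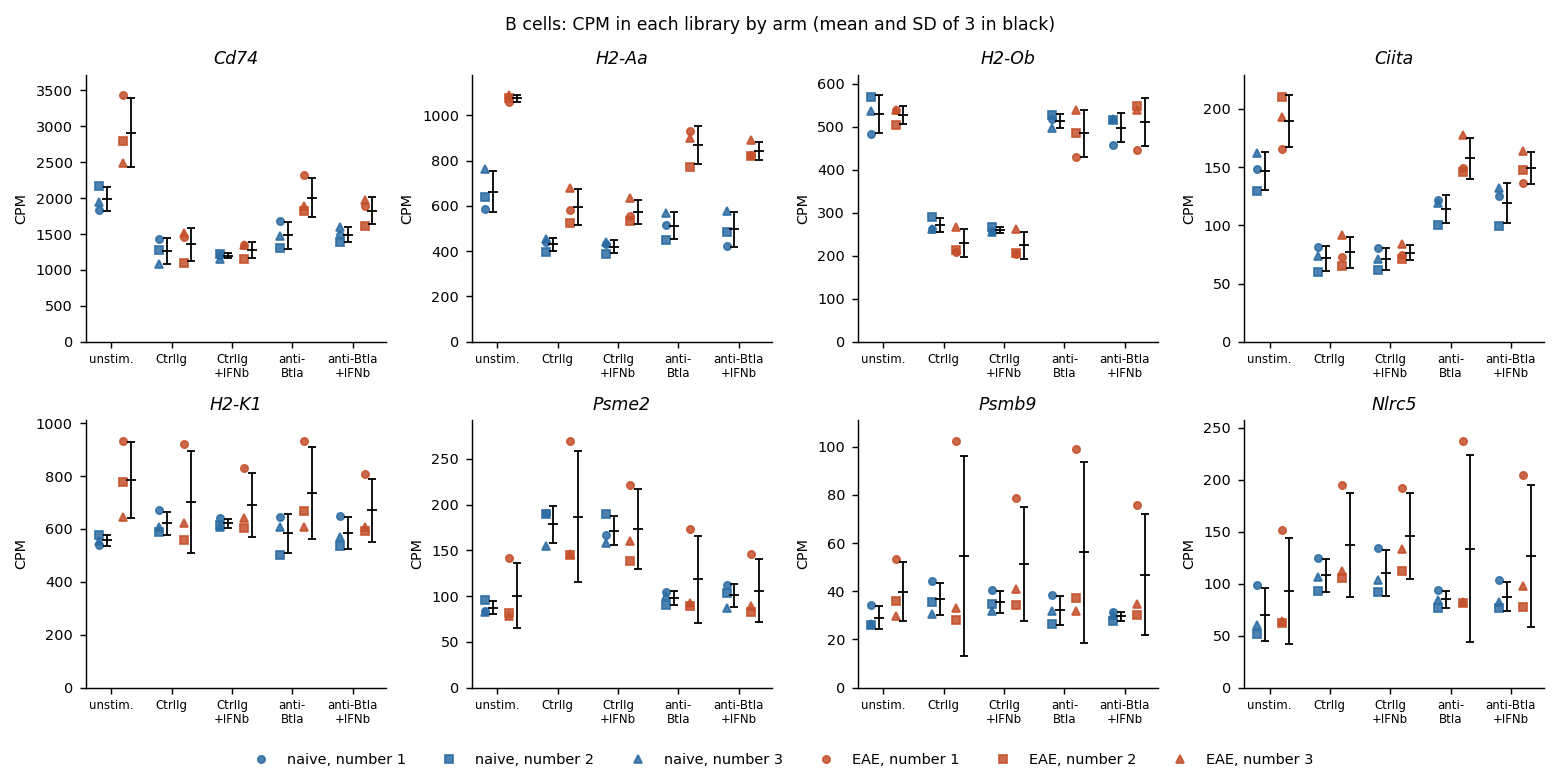
Level in CPM of Cd74, H2-Aa, H2-Ob, Ciita, H2-K1, Psme2, Psmb9 and Nlrc5 in each naive and EAE B cell library by arm; points are libraries, bars are means ± SD of 3. Cd74, H2-Aa, H2-Ob and Ciita dip in the CtrlIg arms and stand higher in the anti-Btla arms, Psme2 has the opposite profile, and in EAE B cells library 1 stands far above the others for Psmb9 and Nlrc5.

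Anti-Btla on the activating beads moved B cells in the reverse direction on part of the list. The comparison is anti-Btla against CtrlIg, and it shares the CtrlIg libraries with the activation comparison, so a fall there and a rise here rest in part on the same values. Among naive B cells 3 of 14 class II side genes rose and 0 fell, with a median log2 change of 0.15, and on the class I side 1 rose and 9 fell of 19, with a median of -0.22. Over all genes 13.1% rose and 19.7% fell. Among EAE B cells 10 of 14 class II side genes rose and 0 fell (median 0.50), and 4 class I side genes rose and 4 fell (median -0.02), against 13.6% of genes higher and 16.5% lower.

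H2-Ob and Ciita rose in both states. H2-Ob with anti-Btla was at 517.2, 528.1 and 496.3 CPM in naive B cells, against 261.4, 289.7 and 262.7 with CtrlIg, a log2 change of 0.83 ± 0.05 (adjusted p = 3.28e-08). All 3 anti-Btla libraries lay within the unstimulated range of 483.5 to 570 CPM. In EAE B cells H2-Ob was at 430.6, 484.8 and 538.2 CPM with anti-Btla and at 209, 212.8 and 267 with CtrlIg (log2 change 1.00 ± 0.08, adjusted p = 1.82e-06). Ciita rose from 81.09, 59.99 and 73.85 CPM to 122, 99.95 and 119.2 in naive B cells (0.58 ± 0.06, adjusted p = 4.3e-06). It rose in EAE B cells from 73.13, 65.12 and 91.83 CPM to 149.7, 145.6 and 177.8 (0.96 ± 0.09, adjusted p = 4.44e-06). Neither gene's groups overlapped in either state.

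The class II chains passed the test in EAE B cells and not in naive B cells. Cd74 in EAE B cells was at 2318, 1821 and 1883 CPM with anti-Btla against 1461, 1092 and 1516 with CtrlIg, a log2 change of 0.49 ± 0.09 (adjusted p = 0.00115). H2-Aa was at 932.3, 771 and 900.5 CPM against 580.1, 525 and 680.9 (0.47 ± 0.07, adjusted p = 0.000176). Both groups of anti-Btla libraries lay above all CtrlIg libraries. H2-Ab1 rose by 0.51 ± 0.10 (adjusted p = 0.00171), H2-Eb1 by 0.59 ± 0.09 (adjusted p = 0.000156) and H2-Oa by 0.72 ± 0.15 (adjusted p = 0.00255), though the calls of H2-Ab1 and H2-Oa were lost without the libraries numbered 1 (adjusted p = 0.05553 and 0.1192). In naive B cells the log2 changes were 0.14 ± 0.10 for Cd74 (adjusted p = 0.302), 0.16 ± 0.08 for H2-Aa (0.132), 0.19 for H2-Ab1 (0.138) and 0.13 for H2-Eb1 (0.316). The third class II side gene that rose there was H2-DMb2 (0.26 ± 0.07, adjusted p = 0.0136), which shares 36.3% of its sequence words with other genes and lost its call in 3 fits with libraries left out (adjusted p up to 0.1653). The direct test of the anti-Btla effect in EAE against naive B cells called 0 of 33 members and 0.0% of 17341 genes, and DESeq2 called 0 members. At an unadjusted p under 0.05 it held 540 genes and 7 members, all of the class II side. The difference was positive for 32 of 33 members (median 0.21 on the log2 scale) and highest for H2-Oa, at 0.45, with adjusted p = 1.0 for every member.

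On the class I side anti-Btla lowered the proteasome activator in both states. Psme2 was at 105, 90.13 and 99.71 CPM with anti-Btla in naive B cells, close to the 82.8 to 95.26 of unstimulated cells and below the 155.3 to 190.6 of CtrlIg (log2 change -0.94 ± 0.09, adjusted p = 1.23e-06). Psme2 in EAE B cells was at 173.1, 89.63 and 92.59 CPM against 269.8, 144.5 and 146.2 (-0.74 ± 0.08, adjusted p = 9.58e-06). Library 1 was the highest of both EAE arms, so these groups overlapped, and each library was lower than the CtrlIg one of its number. Psme1 changed by -0.69 ± 0.07 and -0.54 ± 0.09 on the log2 scale in naive and EAE B cells, Erap1 by -0.42 ± 0.06 and -0.41, and B2m by -0.40 ± 0.09 and -0.33 ± 0.08, all past the test. Nlrc5 fell in naive B cells (-0.43 ± 0.09, adjusted p = 0.00132) but not in those of EAE mice (-0.23, adjusted p = 0.242). H2-K1, H2-D1 and Tap1 passed in neither state, with log2 changes of -0.18, -0.22 and 0.03 in naive and -0.01, -0.03 and 0.27 in EAE B cells. H2-Q7, a nonclassical class I gene, moved the other way. It was at 697.1, 489 and 595.5 CPM against 554.4, 392.5 and 468.5 in naive B cells (log2 change 0.24 ± 0.06, adjusted p = 0.00556), higher in each of the 3 numbers. It rose in EAE B cells by 0.49 ± 0.10 (adjusted p = 0.0018), with H2-M3 (0.29), H2-Q4 (0.27) and H2-Q6 (0.25). Leaving out libraries or numbers lost the EAE call of H2-Q6 in 8 fits (adjusted p up to 0.1938), of H2-Q4 in 6 (up to 0.1669) and of H2-M3 in 6 (up to 0.0952). Those of B2m, Erap1 and H2-Q7 were lost without the libraries numbered 1 (0.06912, 0.07164 and 0.05049).

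With IFNb in both arms anti-Btla gave much the same counts. Naive B cells had 3 class II side genes higher and 0 lower, and 2 class I side genes rose and 8 fell, against 11.9% of genes higher and 17.5% lower. In EAE B cells 10 class II side genes rose and 0 fell, and 4 class I side genes rose and 5 fell, against 13.6% higher and 17.4% lower. H2-Ob rose by 0.89 ± 0.05 and 1.13 ± 0.08 on the log2 scale in naive and EAE B cells, and Ciita by 0.69 ± 0.06 and 0.90 ± 0.09. Psme2 fell by 0.82 and 0.80 on the log2 scale. Cd74 passed in EAE B cells, where it rose by 0.45 ± 0.09 (adjusted p = 0.00199), but not in naive ones (0.27, adjusted p = 0.0539).

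The counts of anti-Btla calls depended on the number term and on the scaling. Without the number term 8 members instead of 13 were called in naive B cells and 7 instead of 18 in EAE B cells, and with IFNb 8 instead of 13 and 6 instead of 19. Scaling by library totals moved the median of all genes by 0.09 and 0.08 in naive and EAE B cells and turned the share of called genes that were higher from 39.8 to 57.4% and from 45.2 to 60.4%. With IFNb these shares went from 40.5 to 50.7% and from 43.8 to 56.2%. The same scaling moved the median of all genes by -0.11 and -0.13 in the activation comparisons, where the higher share went from 56.5 to 39.8% in naive and from 52.9 to 33.8% in EAE B cells. Under library totals the members split as 9 higher and 7 lower for anti-Btla in naive B cells and 15 higher and 4 lower in EAE B cells, and as 10 higher and 11 lower, and 6 higher and 17 lower, for activation. No member called in these comparisons changed sign.

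The rest of the pathway was read from a list of 38 genes. In naive B cells activation raised 12 and lowered 8 of 36 tested, against 3779 and 2905 of all 16635 genes. In EAE B cells it raised 12 and lowered 9 of 36, against 3576 and 3190 of 17007. March1, a ubiquitin ligase that removes class II from the cell surface, fell by 1.20 ± 0.05 on the log2 scale in naive (adjusted p = 4.85e-10) and by 1.19 ± 0.07 in EAE B cells (adjusted p = 6.44e-08). Psmb7, a constitutive proteasome subunit, rose by 0.90 ± 0.06 and 0.89, and Pomp, a proteasome assembly factor, by 1.08 ± 0.07 in naive B cells. With anti-Btla 9 genes rose and 13 fell of 36 in naive B cells, against 2173 and 3283 of all genes. In EAE B cells 9 rose and 11 fell, against 2315 and 2809 of all genes. March1 rose by 1.02 ± 0.05 (adjusted p = 1.08e-08) in naive and 1.07 ± 0.07 (adjusted p = 7.3e-07) in EAE B cells, while Psmb7 fell by 0.73 and 0.72. With IFNb the counts were 8 and 11 in naive B cells, against 1983 and 2917 of all genes. They were 10 and 11 in EAE B cells, against 2309 and 2959.

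Ciita is transcribed from several first exons, and transcripts that begin at the middle one were the major group in all B cell arms. That group held means of 49.95 to 53.5% of Ciita TPM over the 10 B cell groups, the downstream group 42.9 to 47.14% and the upstream group 2.46 to 4.45%. The downstream group includes short partial transcripts. The groups kept this order in every B cell arm, while the level of the gene differed between arms.

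**Figure D4:**
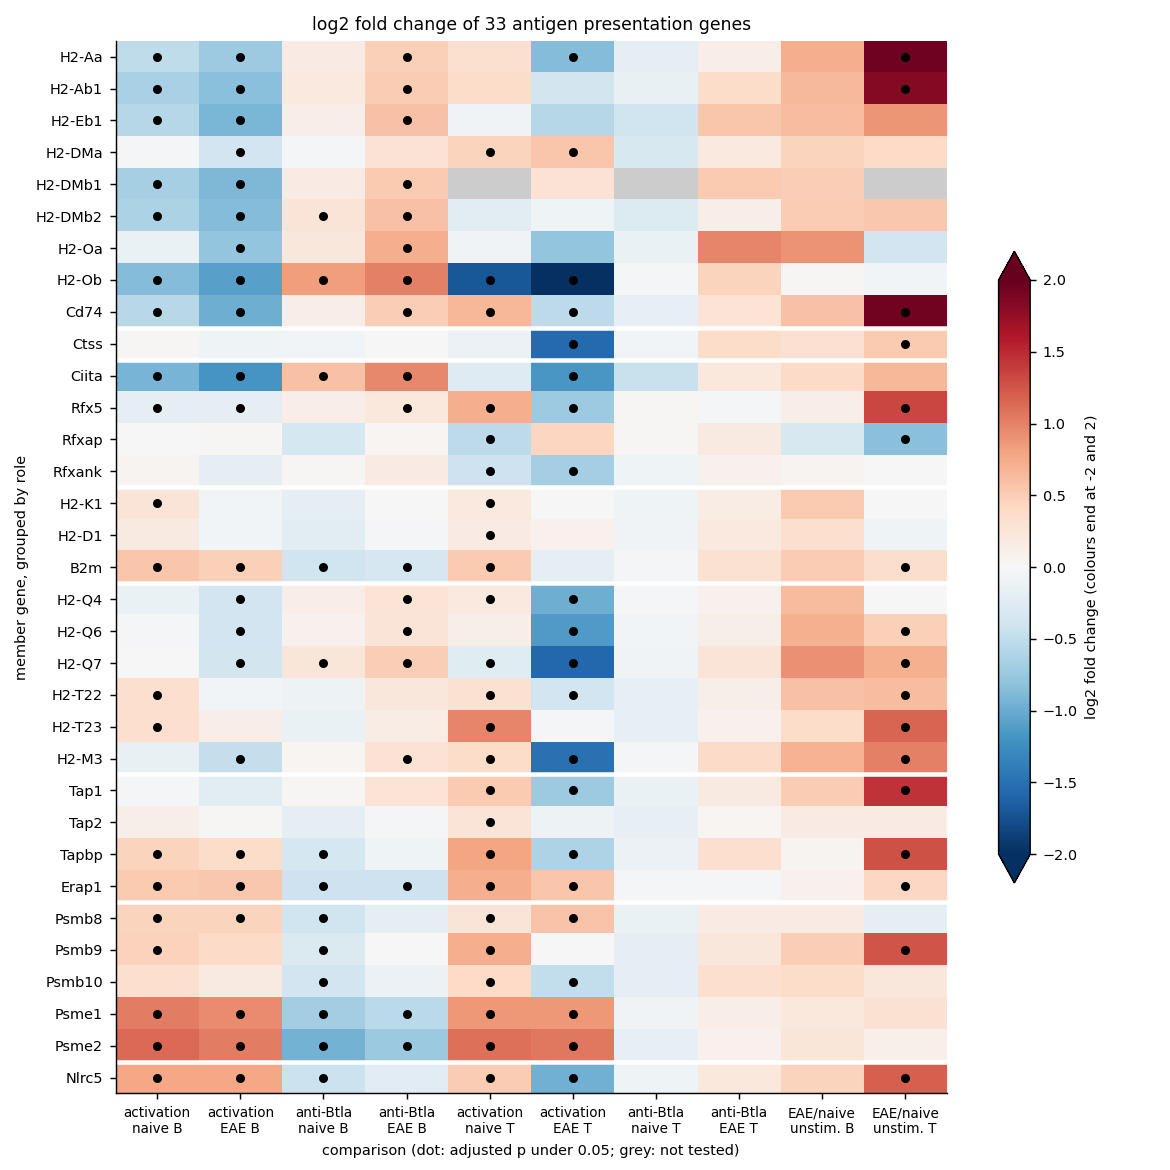
Log2 change of 33 members in 10 comparisons (colours end at -2 and 2; a dot marks an adjusted p under 0.05; grey was not tested). The B cell activation columns are mostly blue for class II and red for Psme1 and Psme2, the anti-Btla B cell columns are the reverse for these genes, and the anti-Btla columns of T cells carry no dot.

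IFNb added to activated cells changed 0 members in any of the 4 sets. In naive B cells the members' log2 changes ran from -0.21 to 0.06 (median -0.05) and in EAE B cells from -0.16 to 0.08 (median -0.05), and 0.0% of all genes passed in either. At an unadjusted p under 0.05 there were 607 and 401 genes, and 0 members in either. In naive T cells the range was -0.52 to 0.17, 0.0% of all genes passed, and 1 member and 926 genes were under 0.05 unadjusted. EAE T cells ran from -0.15 to 0.87 (median 0.07), with 7 members and 1358 genes under 0.05 unadjusted. There 0.158% of all genes were called, 23 higher and 0 lower with IFNb. The smallest adjusted p there was 0.26, for Tapbp (log2 change 0.24 ± 0.07). DESeq2 called 0 members in all 4 sets. Fitting every gene with any count, without the low-count filter, called 4 in EAE T cells.

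As ranges over libraries, not paired by number, the summed level of interferon-stimulated genes overlapped between arms with and without IFNb. It was 167.9 to 342.4 CPM with CtrlIg and 167.7 to 423.3 with CtrlIg and IFNb in naive B cells, and 452.1 to 657.5 against 506.7 to 882.9 CPM in EAE T cells. The ranges overlapped in naive T and EAE B cells too. The change of the IFNb effect in the presence of anti-Btla called 0 members in each of the 4 sets by edgeR and by DESeq2. Of all genes it called 0.0% in every set of cells. At an unadjusted p under 0.05 it held 0 members and 566 genes in naive B cells, 1 member and 375 genes in EAE B cells, 1 and 960 in naive T cells, and 2 and 567 in those of EAE mice. Between EAE and naive cells the IFNb effect differed for 0 members in B cells (0.0% of genes, 389 genes and 0 members under 0.05 unadjusted). In T cells it differed for 0 members (0.188% of genes, 1536 genes and 7 members under 0.05 unadjusted, smallest adjusted p = 0.19). DESeq2 called 0 members for B cells, and 4 members were called for T cells without the low-count filter.

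Activation of naive T cells raised most class I genes. Of 19 class I side genes 17 rose and 1 fell, with a median log2 change of 0.40, and of 13 class II side genes tested 3 rose and 3 fell. Over 15150 genes 27.1% rose and 23% fell. Psme2 went from 93.16, 81.07 and 80.78 CPM to 184.6, 159.3 and 178.4 (log2 change 1.10 ± 0.06, adjusted p = 1.02e-11), and Psme1 by 0.86 ± 0.06 (adjusted p = 9.78e-10). Tap1 went from 181.9, 166.4 and 177.3 CPM to 238, 220.1 and 270 (0.53 ± 0.05, adjusted p = 5.28e-08). For Psme2 and Tap1 all stimulated libraries were above all unstimulated ones. H2-T23, which presents peptides from class I leader sequences, rose by 0.97 ± 0.07, Tapbp by 0.79, Psmb9 by 0.73 ± 0.07 (adjusted p = 1.49e-07), B2m by 0.53 ± 0.05 (adjusted p = 1.48e-07) and Nlrc5 by 0.50 ± 0.06 (adjusted p = 5.19e-07). H2-K1 and H2-D1 rose by 0.19 ± 0.04 and 0.17 ± 0.04 (adjusted p = 0.000852 and 0.00195). H2-D1 lost its call without the libraries numbered 3, which left 13 members higher and 5 lower in place of 20 and 4. H2-Q7 was the class I gene that fell (-0.24 ± 0.05, adjusted p = 0.000385).

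In EAE T cells activation lowered most of the class I genes that changed. On the class I side 4 genes rose and 9 fell (median -0.20), and 1 class II side gene rose and 7 of 14 fell (median -0.62), against 31.7% of 14572 genes higher and 31.3% lower. Psme2 rose from 86.64, 105.3 and 67.83 CPM to 171.8, 179.3 and 163.8 (log2 change 1.05 ± 0.10, adjusted p = 1.57e-07), as in naive T cells, and Psme1 by 0.87 ± 0.09. Psmb8 (0.57 ± 0.09) and Erap1 (0.56 ± 0.08) also rose. Tap1 fell from 420.4, 456.1 and 472.4 CPM to 241.2, 287.1 and 263.8 (-0.73 ± 0.11, adjusted p = 2.04e-05). Nlrc5 fell from 427.9, 400.4 and 437.7 CPM to 212.8, 215 and 204.9 (-0.96 ± 0.08, adjusted p = 7.11e-08). The stimulated and unstimulated libraries did not overlap for these genes, and the stimulated levels of Tap1 overlapped the 220.1 to 270 CPM of stimulated naive T cells. H2-M3 went from 54.81, 62.63 and 54.85 CPM to 15.69, 21.11 and 22.17 (-1.50 ± 0.12, adjusted p = 1.86e-08), and H2-Q7 by -1.57 ± 0.13 (adjusted p = 2.86e-08). Ctss went from 147.9, 191.1 and 155.8 CPM to 47.37, 64.96 and 51.95 (-1.55 ± 0.08, adjusted p = 3.42e-10). H2-K1 (0.01), H2-D1 (0.08), B2m (-0.20, adjusted p = 0.0933) and Psmb9 (-0.01) did not pass.

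Class II transcripts in T cell libraries were low. With activation of EAE T cells 3 of the 9 class II chain, editor and invariant chain genes fell, 1 rose and 5 did not pass. Of all 14572 genes 4568 fell and 4626 rose, so the 3 falls were near the share over all genes. Cd74 in unstimulated EAE T cells was at 162, 114.2 and 53.75 CPM and with CtrlIg at 67.54, 77.75 and 61.53 (log2 change -0.52 ± 0.19, adjusted p = 0.0264). The groups overlapped. H2-Ob went from 76.91, 33.96 and 32.83 CPM to 4.1, 5.455 and 4.035 (-3.27 ± 0.34, adjusted p = 4.08e-07), and from 51.14, 52.51 and 50.85 to 16.99, 16.83 and 13.14 in naive T cells (-1.70 ± 0.14, adjusted p = 1.13e-08). In unstimulated EAE T cells myeloid and dendritic cell markers summed to 164.1 to 385 CPM and B cell markers to 27.06 to 224.4. With CtrlIg the myeloid and dendritic sum was 55.46 to 102.7 CPM. Of the 15 myeloid and dendritic markers, Clec9a was at 0 in 10 and Fcgr1 in 4 of the 15 EAE T cell libraries, and Ly6c2, which T cells can also express, had the highest median, 21.7 CPM. The part of these cells in the class II values of T cell libraries was not tested. The calls of Cd74, H2-Aa (-0.86 ± 0.26, adjusted p = 0.00856) and Ciita (-1.17 ± 0.33, adjusted p = 0.00613) were each lost when single libraries were left out. In naive T cells Cd74 rose (0.66 ± 0.09, adjusted p = 1.07e-05) from 45.69, 23.86 and 22.66 CPM to 70.3, 37.52 and 32.77. Each library was higher than the unstimulated one of its number, and the groups overlapped. The RFX subunits Rfxap (-0.53 ± 0.13) and Rfxank (-0.42 ± 0.11) fell there, but with offsets for transcript length the log2 change of Rfxank was 0.17 and did not pass.

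The activation effect differed between EAE and naive T cells for 19 of 33 members, 2 more positive and 17 more negative in EAE, with a median of -0.67 on the log2 scale against -0.03 for all genes. Of 15982 genes 20.8% were more positive and 17% more negative. Nlrc5 differed by -1.39 ± 0.10 (adjusted p = 9.52e-11), H2-M3 by -1.78 ± 0.15 (adjusted p = 7.58e-10), Tap1 by -1.19 ± 0.12 (adjusted p = 2.93e-08) and B2m by -0.66 ± 0.12 (adjusted p = 9.74e-05). Psme1 (0.08), Psme2 (0.03), H2-K1 (-0.11) and H2-D1 (-0.02) did not pass. Rfxap (1.03 ± 0.23, adjusted p = 0.000709) and Psmb8 (0.39 ± 0.11, adjusted p = 0.00554) were the members with a more positive effect in EAE, calls lost without number 3 and number 1 (adjusted p = 0.05678 and 0.06734). CD8 transcripts fell in naive T cells over the same comparison, with Cd8a and Cd8b1 summing to 925.6 to 1096 CPM unstimulated and 597.4 to 751.7 with CtrlIg, and their part was not tested.

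**Figure D5:**
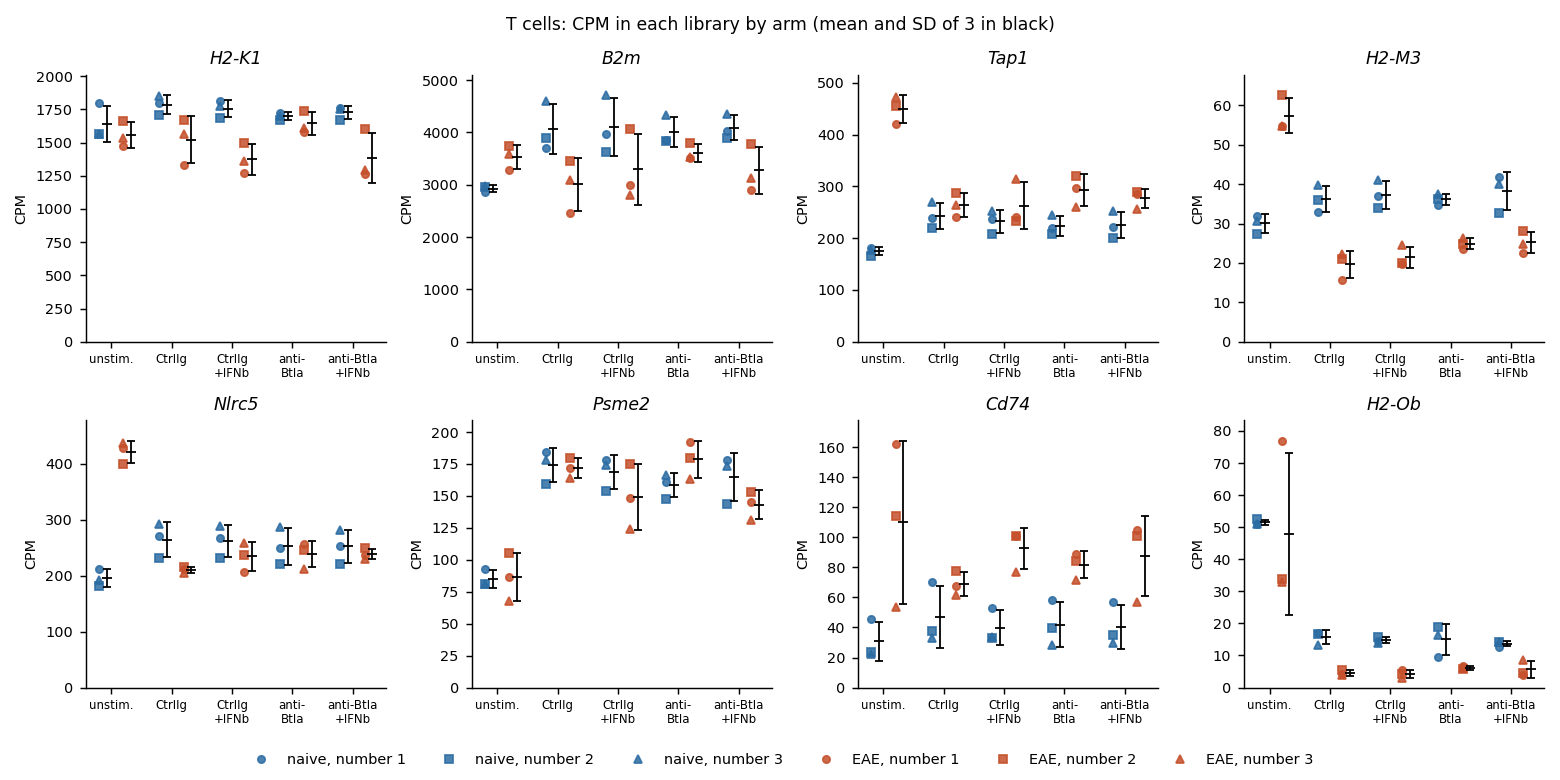
Level in CPM of H2-K1, B2m, Tap1, H2-M3, Nlrc5, Psme2, Cd74 and H2-Ob in each naive and EAE T cell library by arm; points are libraries, bars are means ± SD of 3. Unstimulated EAE libraries stand apart at the top for Tap1, H2-M3 and Nlrc5, whereas Psme2 is higher in all stimulated arms of both states.

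Other genes of the pathway were called in T cells too. Activation raised 17 and lowered 7 of 34 in naive T cells, against 4107 and 3481 of all 15150 genes. It raised 13 and lowered 15 of 33 in EAE T cells, against 4626 and 4568 of 14572. The effect was more positive in EAE for 8 and more negative for 12 of 35, against 3323 and 2714 of 15982. Irf8, a transcription factor, rose in both, by 4.18 ± 0.14 and 2.85 ± 0.09 on the log2 scale in naive and EAE T cells. Summed interferon-stimulated genes were at 283.8 to 407.9 CPM in unstimulated naive T cells, 461.4 to 918.5 with CtrlIg, 1629 to 2560 in unstimulated EAE T cells and 452.1 to 657.5 with CtrlIg. Their part in the class I differences was not tested.

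Anti-Btla changed 0 members in T cells in each of the 4 comparisons. In naive T cells the log2 changes ran from -0.44 to 0.02 (median -0.12), 0.0% of all genes passed, and 8 members and 1249 genes were under 0.05 unadjusted. With IFNb the median was -0.02, with 0.0132% of genes called and 2 members and 921 genes under 0.05 unadjusted. In EAE T cells 31 of 33 members had a positive log2 change, from -0.03 to 0.98 (median 0.19), with 0.0686% of genes called and 9 members and 1358 genes under 0.05 unadjusted. Tapbp there was at 246.4, 280.2 and 250.2 CPM against 187.5, 221 and 221.9 with CtrlIg (log2 change 0.33 ± 0.07, adjusted p = 0.112). These groups did not overlap. DESeq2 called 2 members and a fit without the low-count filter 3. With IFNb in EAE T cells the median was 0.00, with 0.0% of genes called and 3 members and 1418 genes under 0.05 unadjusted. The anti-Btla effect in EAE T cells differed from that in naive T cells for 1 of 33 members, Tapbp (0.43, adjusted p = 0.0459), and for 0.244% of genes, with 17 members and 1619 genes under 0.05 unadjusted. That call was lost in 14 of 15 fits that left out a library or number set.

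No member passed the test between unstimulated B cells of EAE and of naive mice, although the estimates leaned one way. The log2 difference, EAE minus naive, was positive for 32 of 33 members, with a median of 0.45 against 0.01 for all genes, and 0 members passed against 8 of 16264 genes (0.0492%). At an unadjusted p under 0.05 there were 21 members and 1175 genes. H2-Aa was at 1059, 1076 and 1088 CPM in EAE and at 585.5, 637.8 and 762.4 in naive B cells, a log2 difference of 0.73 ± 0.10 (adjusted p = 0.0537). H2-Ab1 was at 525.9, 606.5 and 520.9 CPM against 322.8, 362.3 and 385.9 (0.65 ± 0.09, adjusted p = 0.0537). The groups did not overlap for either chain. The estimate was 0.91 ± 0.15 for H2-Q7 (adjusted p = 0.0789), 0.90 for H2-Oa and 0.71 ± 0.10 for H2-Q6 (adjusted p = 0.057), Cd74 was at 0.58 ± 0.13 (adjusted p = 0.2), and H2-Ob at 0.02 (adjusted p = 0.982). The count was 14 with DESeq2, 16 without the low-count filter, 2 with library totals and 2 with the number as a block. In the other pathway genes 0 of 36 passed.

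Unstimulated EAE T cells differed from naive ones for 17 of 32 members, 16 higher and 1 lower, against 18.6% of 13918 genes higher and 17% lower. Library totals gave 41.9% of all called genes as higher, in place of 52.2%. On the class I side 11 rose and 0 fell of 19. Tap1 was higher by 1.44 ± 0.07 on the log2 scale (adjusted p = 2.95e-06), Tapbp by 1.27 ± 0.10 (adjusted p = 2.68e-05), Psmb9 by 1.25 ± 0.08 (adjusted p = 9.72e-06), Nlrc5 by 1.19 ± 0.07 (adjusted p = 7.09e-06) and B2m by 0.35 ± 0.07 (adjusted p = 0.00541). H2-K1 (0.01) and H2-D1 (-0.08) did not pass. On the class II side 5 rose and 1 fell, among them H2-Aa (1.95 ± 0.47, adjusted p = 0.0112), Cd74 (1.93 ± 0.39, adjusted p = 0.00482) and H2-Ab1 (1.83 ± 0.42, adjusted p = 0.00855). H2-Aa was at 62.32, 35.31 and 15.85 CPM in EAE and at 15.89, 7.538 and 7.925 in naive T cells, so the lowest EAE library lay just below the highest naive one, and its call was lost without naive library 2 or 3. Rfxap, at 6.008, 6.164 and 4.868 CPM against 10.51, 10.52 and 10.5, was the member that was lower (-0.83 ± 0.18, adjusted p = 0.00597). Myeloid and dendritic cell markers summed to 164.1 to 385 CPM in these EAE libraries and to 69.98 to 84.28 in the naive ones, and natural killer cell markers to 14.22 to 22.68 and 4.355 to 8.483 CPM. Over all arms B cell markers summed to 19.31 to 224.4 CPM in EAE and to 38.71 to 95.66 in naive T cell libraries. The part of such cells in these differences was not tested. Of the other pathway genes 15 rose and 3 fell of 32, with Irf1 at 1.94 ± 0.14 and H2-T24 at 2.01 ± 0.16 on the log2 scale. These unstimulated libraries also enter the activation difference above, so the comparisons share values.

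B cells and T cells differed in opposite directions on the 2 sides of the list. In unstimulated naive cells 12 of 14 class II side genes were higher in B cells and 1 lower, with a median of 3.95 on the log2 scale, and 1 class I side gene was higher and 16 of 19 were lower (median -0.96). Of 15871 genes 32.9% were higher and 30.6% lower. H2-DMb1 was at 25.48, 26.32 and 31.08 CPM in B cells and at 0.2596, 0.08552 and 0.3014 in T cells (log2 difference 6.93 ± 0.24, adjusted p = 1.21e-09). Its T cell libraries held only a few reads of it, so this fold depends on the fit's prior count. Cd74 differed by 6.06 ± 0.23 (adjusted p = 2.74e-09), H2-Aa by 6.08 ± 0.21 (adjusted p = 1.55e-09) and Ciita by 5.33 ± 0.14 (adjusted p = 1.97e-10). H2-Ob differed less, by 3.35 ± 0.08. H2-K1 was at 539.1, 577.7 and 554.1 CPM in B cells and 1797, 1561 and 1563 in T cells (-1.57 ± 0.07, adjusted p = 5.71e-09). Nlrc5 differed by -1.50 ± 0.19, H2-T22 by -1.42, Psmb9 by -1.30 ± 0.11 and B2m by -0.81 ± 0.05 (adjusted p = 6.39e-08). Erap1 (0.32 ± 0.06, adjusted p = 0.000471) and Rfxap (-0.67 ± 0.19, adjusted p = 0.00953) went against their sides. H2-D1 (-1.21 ± 0.06) was counted from different transcript sets in the B and T cell tables, which limits its value.

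In unstimulated EAE cells 12 class II side genes were higher in B cells and 0 lower, and 0 class I side genes were higher and 15 lower, against 27% of 16686 genes higher and 27% lower. Ciita differed by 5.05 ± 0.19 (adjusted p = 1.46e-07), H2-Eb1 by 5.48 ± 0.32 and Cd74 by 4.67 ± 0.39 (adjusted p = 1.16e-05), while Nlrc5 differed by -2.24 ± 0.34 (adjusted p = 0.000469) and Psmb9 by -2.07 ± 0.21 (adjusted p = 4e-05). Tapbp (-1.66) and H2-T23 (-1.77) were further apart than H2-K1 (-1.06 ± 0.16). Of 35 other pathway genes 14 were higher and 12 lower in naive B cells, against 5226 and 4864 of 15871 genes. In EAE cells 12 were higher and 13 lower of 36. Irf8 (5.45), March1 (7.39) and Ctsh (5.93), a lysosomal protease, led in the naive comparison.

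Class I genes varied together between libraries of EAE B cells and class II genes did not follow them. In EAE B cells library 1 was the highest of its group in all 5 arms for 18 of 19 class I side genes, all but H2-Q7, and for 1 of 14 class II side genes, H2-DMa, against 6.2% of 17007 genes. B2m with CtrlIg was at 4037, 2397 and 2609 CPM in libraries 1, 2 and 3, Psmb9 at 102.4, 28.05 and 33.02 and Tap1 at 211.3, 89.21 and 104.8. Ciita in the same libraries was at 73.13, 65.12 and 91.83 CPM. In naive B cells library 1 was the highest in all arms for 9 of 19 class I side genes, Tap1, Psmb9 and Nlrc5 among them, and for 0 of 14 class II side genes, against 2.6% of 16635 genes. The mean log2 CPM of interferon-stimulated genes was 3.745 to 4.349 in the EAE B cell libraries numbered 1, 2.426 to 2.776 in those numbered 2 and 2.73 to 2.936 in those numbered 3, and 3.451 to 4.325, 2.729 to 3.159 and 2.624 to 3.156 in naive B cells. Their part in the class I levels was not tested. In EAE T cells number 2 was the highest in all arms for 5 class I side genes, H2-K1, H2-D1 and B2m among them, and for 2 class II side genes, against 3.3% of 14572 genes. In naive T cells the class II genes H2-Aa, H2-Ab1 and Cd74 were highest in number 1 in all 5 arms, against 2.8% of 15150 genes.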

How the data were processed

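RNA of 60 libraries was measured by sequencing. The deposited tables, 67 in all because 7 libraries were sequenced in 2 runs, hold Salmon output with estimated counts and TPM per transcript. Per the labels the authors used the build GRCm38 and named Salmon and DESeq2, with no version. No source used here gives the library kit or the strand setting, so genes that overlap on opposite strands and genes with shared sequence are uncertain.

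Estimated counts were summed to genes with GENCODE M21 by transcript identifier without version, runs were summed (chi-square per degree of freedom between runs 1.537 to 1.644, between replicates 4.162 to 50.01), and sums were rounded. Transcripts without a gene held 0.158 to 0.210% of the counts in B cells and 0.425 to 0.677% in T cells and were left out. The tables of B cells list 116546 transcripts and those of T cells 116945, and H2-D1 has different transcripts in each. CPM was taken on library totals. Genes passing filterByExpr with a minimum count of 10 were tested with edgeR 4.0.16 (limma 3.58.1, R 4.3.3) by the quasi-likelihood test with TMM factors, and p-values were adjusted over all genes tested by the Benjamini-Hochberg method, with a threshold of 0.05. The activation, IFNb and anti-Btla effects were fitted on the 15 libraries of a cell type and state with the library number as a term. Differences between states were fitted on the 30 libraries of a cell type with the number within each state, and EAE against naive and B against T comparisons on 6 unstimulated libraries without it. The study's general statistical methods put the replicate in its linear models, but its RNA-seq methods state no such term, so a pairing of the libraries is a hint from the data. Same-numbered libraries mostly deviated together, with a median correlation of 0.296 and 0.505 in naive and EAE B cells and 0.183 and 0.291 in naive and EAE T cells, above 0.1 in 25, 28, 29 and 26 of 30 pairs in that order, against -0.114, -0.334, -0.0954 and -0.144 for other pairs. There were 30 comparisons. The script was tested on simulated counts.

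The members, the 38 other pathway genes and the marker lists were chosen with earlier results of these data known. Genes named in a comparison were taken from 11 core members (Cd74, H2-Aa, H2-Ab1, H2-Eb1, Ciita, H2-K1, H2-D1, B2m, Tap1, Psmb9, Nlrc5), up to 4 called members with the largest change each way, members moving against their class, and up to 3 called pathway genes with the smallest p. Other genes named were chosen after their values were seen. The alternatives were RLE size factors, DESeq2 1.42.0, no low-count filter, transcript length offsets, no number term or an added one, and each library or number left out. Library totals without TMM were added after the data were seen. One gene of the pathway list is not reported by name.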

Additional observations from a re-analysis of the deposited data

Results flagged for a closer look

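The activation effect (CtrlIg against unstimulated) differed between EAE and naive T cells for 19 members, by the test of the difference in edgeR with the library number within each state. Differences are EAE minus naive on the log2 scale, and each has an adjusted p under 0.05.

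On the class I side the effect was more negative in EAE T cells for B2m (-0.66), for the peptide loading genes Tap1 (-1.19) and Tapbp (-1.32), for the immunoproteasome subunits Psmb9 (-0.67) and Psmb10 (-0.81), and for the regulator Nlrc5 (-1.39). It was also more negative for the nonclassical heavy chains H2-Q4 (-1.11), H2-Q6 (-1.19), H2-Q7 (-1.26), H2-T22 (-0.62), H2-T23 (-0.91) and H2-M3 (-1.78). Psmb8 (0.39) was more positive. On the class II side it was more negative for H2-Aa (-1.10), H2-Ob (-1.52), Cd74 (-1.11), Ctss (-1.35) and Rfx5 (-1.38) and more positive for Rfxap (1.03). The calls of H2-Aa, Psmb8 and Rfxap were lost in at least 1 fit that left out a library or a number. The unstimulated libraries of the states differ in CD8, myeloid and natural killer cell transcripts, whose part in these values was not tested.

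The anti-Btla effect differed between EAE and naive T cells for Tapbp (0.43, adjusted p = 0.0459), a call that was lost in 14 of 15 fits with a library or number left out.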

How the results depend on the processing

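Of 244 single-gene calls of members, refitted under 3558 alternatives in all, 3236 kept their direction and side of the threshold, 321 kept the direction and lost the call, and 1 reversed: Rfxank under activation of naive T cells had a log2 change of 0.17 with transcript length offsets. The cause was not tested. Leaving out libraries lost 228 calls and kept 1866, in smaller groups. Each group holds 3 libraries, which limits the precision.

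Without the replicate block, the number of members called fell from 13 to 8 for anti-Btla in naive B cells and from 13 to 8 with IFNb (3 higher and 5 lower in each), from 22 to 10 for activation in EAE B cells, from 18 to 7 for anti-Btla in EAE B cells, from 19 to 6 with IFNb, and from 1 to 0 for the anti-Btla difference between T cells. Without that block 114 single-gene calls held and 56 were lost. With a replicate block the EAE against naive comparison of B cells called 2 members in place of 0, and 74 single-gene calls of the comparisons without the block all held. The pairing changed no other count by over 1.5 times.

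For EAE against naive B cells the count of 0 became 2 with library totals, 14 with DESeq2 and 16 with no low-count filter. With no low-count filter the IFNb effect in EAE T cells called 4, its difference between T cells 4, and the anti-Btla effect in EAE T cells 3 (DESeq2 2) in place of 0. The 1 call of the anti-Btla difference between T cells became 0 with RLE size factors, library totals or length offsets, 2 with DESeq2 and 7 with no low-count filter.

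Leaving out a library or number gave 10 to 18 calls for anti-Btla in EAE B cells (7 higher and 3 lower without number 1), and 0 to 1 for the anti-Btla difference between T cells. With IFNb it gave 9 to 16 in EAE B cells (7 higher and 3 lower without number 1, 7 and 2 without number 3, 10 and 2 without CtrlIg+IFNb library 3) and 8 to 14 in naive B cells (2 and 6 without number 3). Library totals took the share of all called genes that were higher in EAE against naive T cells from 52.2 to 41.9% and left every member's direction as it was in the B cell activation and anti-Btla comparisons.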
